A study of Mus musculus with 39 samples.

Results

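The RNAs considered here encode the proteasome: the subunits of its core and its regulatory cap, the activators that bind the core, and the chaperones that help to assemble it. They were taken by symbol, as every gene named Psma, Psmb, Psmc, Psmd, Psme, Psmf or Psmg with a number, plus Adrm1 and Pomp. Both tables of the series held 50 such genes among the 13230 genes they share. The libraries came from livers of wild type FVB female mice, an inbred strain; no age was given. By ATLAS-Seq, liver was broken with beads in a buffer without detergent, nuclei were spun out, and the remaining homogenate was spread by velocity sedimentation through a sucrose gradient that was cut into fractions from light (low number) to dense (high number). Total RNA depleted of ribosomal RNA was sequenced from 17 fractions of gradient 1 (4 to 19 and 21) and 22 fractions of gradient 2 (3 to 24), 39 libraries in all. The gradients are the replicates (n = 2), and the fractions of a gradient are not. All libraries are wild type and untreated, so the comparison is between fractions.

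The proteasome is the protease that destroys proteins tagged with ubiquitin. Its 20S core is a barrel of stacked rings: outer rings of alpha subunits, which gate the entrance, and inner rings of beta subunits, of which Psmb5, Psmb6 and Psmb7 carry the active sites. The 19S cap holds a ring of ATPases (Psmc), which unfold substrates and push them in, and non-ATPase subunits (most Psmd genes and Adrm1), which bind ubiquitin and remove it. In the immunoproteasome, best known from immune cells and from tissue exposed to interferon, Psmb8, Psmb9 and Psmb10 take the places of Psmb5, Psmb6 and Psmb7. Psme1 and Psme2 (PA28), Psme3 and Psme4 (PA200) encode other caps, and Psmf1 (PI31) encodes a protein known as an inhibitor. Psmg1 to Psmg4 and Pomp help to build the core, and Psmd5, Psmd9 and Psmd10 help to build the cap.

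The pairs of catalytic subunits are shown first, because the ratio of their RNAs is a result given later. Each mature subunit starts with the threonine that cuts the substrate, and the first 30 coding bases from that threonine are given below, with its codon in capitals (GENCODE M21 transcripts on GRCm38, the assembly also called mm10).
Psmb5, codon 60, within chr14:54616813-54617814, minus strand, over an exon junction: ACCaccaccctggccttcaagtttctccat
Psmb8, codon 73, chr17:34199302-34199331, plus strand: ACAaccacactcgccttcaagttccagcat
Psmb6, codon 34, chr11:70525885-70525914, plus strand: ACCacgatcatggctgtgcagtttaatggg
Psmb9, codon 21, chr17:34185768-34185797, minus strand: ACAaccatcatggcagtggagtttgacggg
Psmb7, codon 44, within chr2:38642273-38643384, minus strand, over an exon junction: ACTaccatcgcgggggtggtgtataaggat
Psmb10, codon 40, within chr8:105937589-105937705, minus strand, over an exon junction: ACTaccatcgcggggcttgtgttccgagat
Within these 30 bases, 24 were identical between Psmb5 and Psmb8, 24 between Psmb6 and Psmb9, and 23 between Psmb7 and Psmb10. Over the whole aligned coding sequence, identity was 68.1%, 66.4% and 63.4%, and none of the pairs shared a single run of 31 bases. This holds between the partners only, and sharing with other genes is given below.

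Values are in TPM, as deposited, the share of a library's transcripts after scaling for transcript length. Libraries were made from equal masses of RNA, so a TPM gives a share of the RNA of a fraction and not an amount. A rise cannot be told apart from less of other RNA. The zones of each gradient divide up a shared liver homogenate. A comparison between them is thus of parts of that homogenate, and not of different sets of cells. Which cell types gave the RNA of a zone was not tested. For the tests, 3 zones of 4 fractions were averaged within each gradient on the log2(TPM + 1) scale: light (4 to 7), middle (10 to 13) and dense (16 to 19). The zones were compared with limma over all 11754 genes with a mean of at least 1 TPM in the 24 libraries, and a gene was called at a Benjamini-Hochberg adjusted p under 0.05. Fold changes are on the log2(TPM + 1) scale. Of the 50 genes, 48 entered the tests. Psma8, an alpha subunit of testis, and Psmb11, a beta subunit of the thymus, did not reach the minimum, and Psma8 did not exceed 1.65 TPM in any library, while Psmb11 had a median of 1.56 TPM in the light and 0.116 TPM in the dense zone.

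Series-wide, 10532 to 12558 genes exceeded 1 TPM per library. All 10 hepatocyte markers examined, such as Alb (albumin), were above 0 in each of the 24 zone libraries; from light to dense, 2 rose and 6 fell, where 22.3% of all genes rose and 39.6% fell. Their summed level was highest in the light zone, at 28566 to 62589 TPM, against 8640 to 16872 TPM in the middle and 11272 to 26112 TPM in the dense zone. The summed Kupffer cell markers, those of liver macrophages, ranged from 199 to 267 TPM in the light, 88.0 to 131 TPM in the middle and 100 to 144 TPM in the dense zone. The part of these shifts in the results below was not tested.

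The proteasome RNAs together took up a small share of the light fractions and several times more of the denser ones. Summed over the 50 genes, they made up 0.191% of the TPM in fraction 4 of gradient 1 and 0.233% in fraction 4 of gradient 2. The share climbed with every fraction from 5 to 15 in both gradients, to 1.61% and 1.42% at fraction 15, where each gradient had its highest value. Beyond that point the gradients differed: gradient 1 stayed at 1.46% to 1.57% through fractions 16 to 19 and held 1.502% at fraction 21, whereas gradient 2 fell to 1.03% at fraction 19, to 0.950% at fraction 21 and to 0.894% at fraction 24. In the dense zone, 43 of the 48 tested genes were lower in gradient 2, at a median of 0.816 times the level in gradient 1. In the light zone the median ratio was 1.04.

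**Figure D1:**
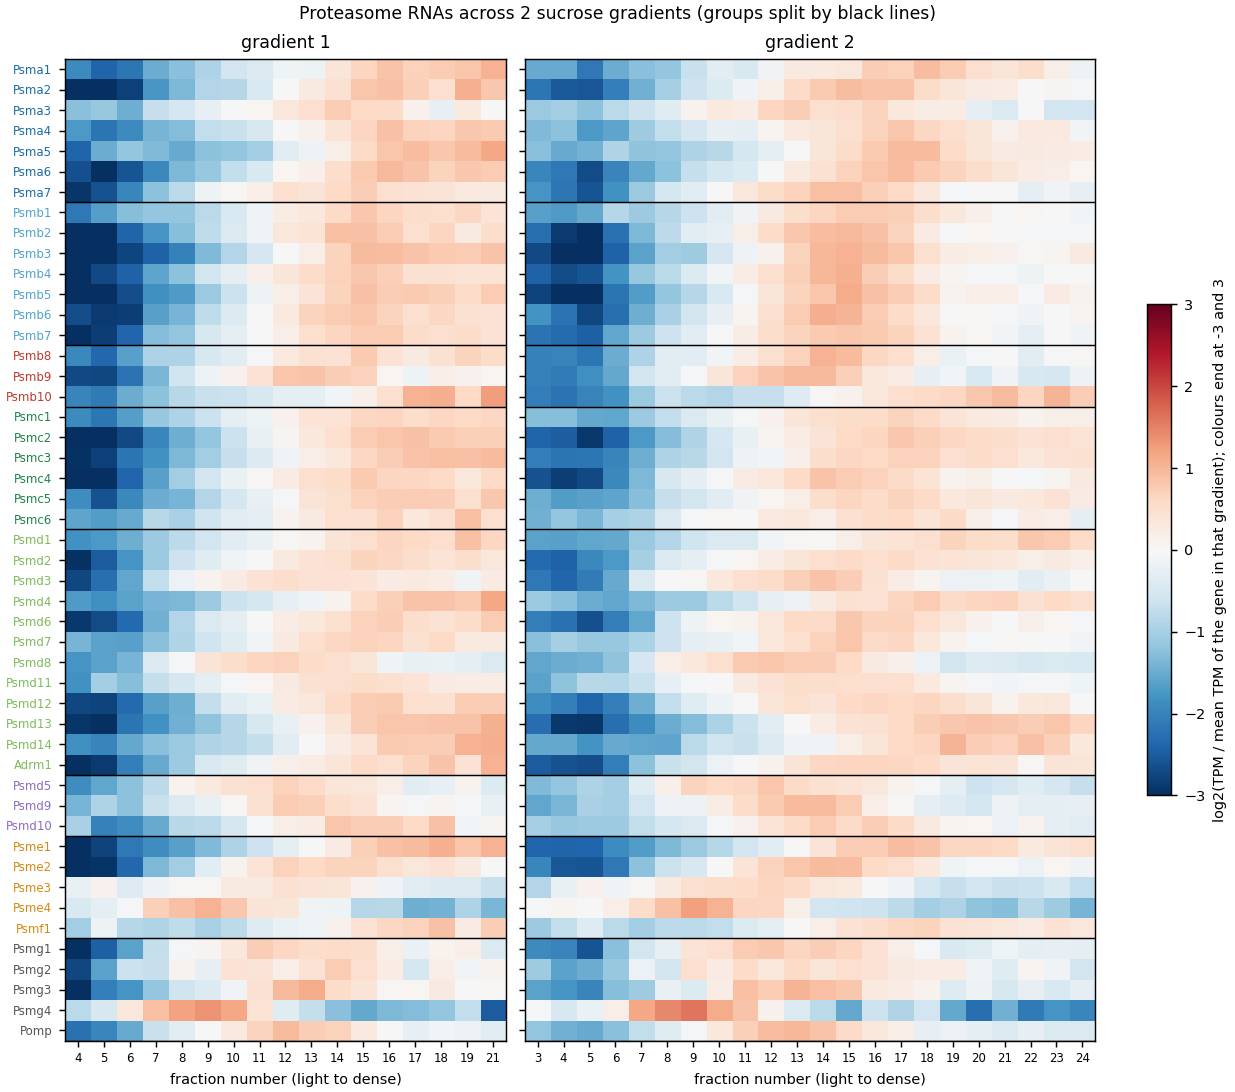
Level of each of the 48 tested proteasome RNAs in every fraction (columns, light to dense) of gradient 1 (left) and gradient 2 (right), as log2 of its TPM over its own mean TPM in that gradient. Black lines split the groups in the order 20S alpha, 20S beta, immunoproteasome, 19S ATPases, 19S non-ATPase subunits, 19S assembly chaperones, activators and inhibitor, 20S assembly chaperones. Most rows turn from blue (below the mean) to red (above it) toward the dense side, while Psme4 and Psmg4 are highest at fraction 9 in both gradients.

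Between the light and the dense zone, 44 of the 48 tested genes rose, 2 fell (Psme4 and Psmg4), and 2 were not called (Psme3 and Psmd9). Over all tested genes, 22.3% rose and 39.6% fell. The median change of the proteasome RNAs was 2.27 on the log2 scale, against −0.43 for all genes. All 48 had the same sign of change in both gradients, and for 41 of them every one of the 8 dense libraries lay above every one of the 8 light ones, as it did for 16.9% of all genes. Under quantile normalization the median of all genes was −0.05, and 50.7% of called genes rose, against 36.0% as deposited; the proteasome median was 2.09 there.
Between the light and the middle zone, 44 rose and 0 fell, with a median of 1.87 against 0.05 for all genes. The background here was 23.5% higher and 24.1% lower.
Between the middle and the dense zone, the genes went separate ways: 15 rose, 5 fell and 28 were not called, with a median of 0.35 against −0.28. Of all genes, 4.79% rose and 22.5% fell. Without the middle zone of gradient 1, or without that of gradient 2, limma called 0 genes of the whole table at this step, and 3374 and 3510 genes had an unadjusted p under 0.05, 21 and 19 of them proteasome genes. The lone middle value is then assumed to vary like the other zones, and the median change of the proteasome RNAs was 0.45 and 0.29. With the gradient as a block, 23 of the 48 proteasome RNAs rose and 10 fell, against 14.1% and 39.3% of all genes in that fit.

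The 20S core subunits rose as a group. All 7 tested alpha and all 7 tested beta RNAs rose from light to dense, with medians of 2.43 and 2.80 on the log2 scale. Psma7, the alpha subunit RNA with the highest mean, had 54.8, 94.0 and 177 TPM in the light zone (lowest, median and highest of 8 libraries), 369, 506 and 598 TPM in the middle and 363, 545 and 613 TPM in the dense zone. Its light libraries were thus all below the others, and its middle and dense libraries overlapped. In limma its change from light to dense was 2.43 ± 0.15 (SE) on the log2 scale (adjusted p = 0.000301).
Psmb4, the beta RNA with the highest mean, had 52.1 to 180 TPM in the light zone (median 84.1), 370 to 731 TPM in the middle (median 553) and 414 to 810 TPM in the dense zone (median 657).
Psmb3, a structural beta subunit, showed the largest change of all, 11.6-fold from light to dense (log2 3.54 ± 0.25 SE, limma adjusted p = 0.000328). It had 30.1 to 105 TPM in the light zone (median 49.8), 222 to 505 TPM in the middle (median 326) and 369 to 828 TPM in the dense zone (median 679).
Psmb5 followed, with 30.2 to 113 TPM in the light zone (median 50.1) against 305 to 702 TPM in the dense zone (median 552), a 9.95-fold change. The light and dense libraries of both genes did not overlap. The other catalytic subunits had lower changes: Psmb6 went from 53.2 to 143 TPM (median 72.5) in the light to 360 to 713 TPM (median 608) in the dense zone, and Psmb7 from 43.0 to 176 TPM (median 77.2) to 381 to 734 TPM (median 612). Psmb1, a structural subunit, had the highest light level of the core, 85.2 to 181 TPM (median 136), and 404 to 585 TPM (median 537) in the dense zone. About 66.9% of the 31-base words of the Psmb3 transcript and 74.0% of those of Psmb5 also occur in transcripts of other genes, mostly pseudogenes, so their values are uncertain where reads were split between copies. These shares, here and for other genes, were computed on GENCODE M21 transcripts and not on the RefSeq transcripts used for the TPM, which may hold fewer pseudogenes. Over the 39 tested genes that share under 25% of their words, 35 rose and 2 fell, with a median of 2.04.

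The last step was called for most alpha RNAs. From middle to dense, 5 of 7 alpha RNAs rose (Psma1, Psma2, Psma4, Psma5 and Psma6) and 0 of 7 beta RNAs did, although the beta RNAs had risen more in the first step (median 2.52 against 1.54). Of all genes 4.79% rose at this last step, so the count for the beta RNAs is near the background. Psma5 changed by 2.61-fold (log2 1.38 ± 0.17 SE, limma adjusted p = 0.00714), from 81.4 to 166 TPM in the middle zone to 223 to 359 TPM in the dense zone, with no overlap. However, 64.0% of the 31-base words of Psma5 and 38.9% of those of Psma4 also occur in other genes, so their values are uncertain too. Psma1, Psma2 and Psma6 share under 25%. Psma1 changed by 2.01-fold at this step (limma adjusted p = 0.0121), from 112 to 186 TPM (median 142) to 250 to 345 TPM (median 298), after 34.7 to 68.6 TPM in the light zone. Psmb3 missed the threshold narrowly (limma adjusted p = 0.0505) and passed it with the gradient as a block (adjusted p = 0.0172), as did Psmb1 (0.0514 and 0.0116) and Psmb5 (0.153 and 0.0171); the block therefore brings the beta count to 3 of 7, where 14.1% of all genes rose. The difference between the rings itself was not tested. Psma3 and Psma7 were the alpha RNAs not called at this step, and Psma3 had 109 to 154 TPM in the middle zone and 91.3 to 160 TPM in the dense zone.
Among the 14 constitutive core subunits, levels in the light zone ran from 47.8 TPM (Psma2) to 131 TPM (Psmb1) in gradient 1, and in the dense zone from 125 TPM (Psma3) to 781 TPM (Psmb3). The coefficient of variation among the 14 genes was 34.0% and 37.4% in the light zones of gradients 1 and 2, and 33.4% and 30.5% in the dense zones. RNAs for subunits that enter the particle in equal number were therefore present at unequal levels in each zone, on the TPM scale. The dense zone extremes, Psma3 and Psmb3, share 27.1% and 66.9% of their 31-base words with other genes. The size of this spread is thus uncertain where reads were split between copies.

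The 19S cap RNAs rose too. All 6 ATPase RNAs rose from light to dense, from 3.49-fold or log2 1.80 (Psmc6) to log2 3.30 (Psmc2), and 3 of 6 (Psmc2, Psmc3 and Psmc5) rose again from middle to dense. With the gradient as a block, 5 of 6 ATPase and 7 of 12 non-ATPase RNAs rose at that step. The share of all genes that rose there was 4.79% without the block and 14.1% with it.
Psmc1 had the highest mean of the 6, with 60.5 to 127 TPM in the light zone (median 92.8), 224 to 362 TPM in the middle (median 279) and 354 to 431 TPM in the dense zone (median 408).
Psmc2 was the lowest of the 6 in the light zone, at 17.3 to 47.7 TPM (median 27.7), and reached 242 to 322 TPM in the dense zone (median 282), a 9.83-fold change (limma adjusted p = 0.000301). Psmc5 went from 33.4 to 75.0 TPM in the light to 227 to 347 TPM in the dense zone, and changed by 5.08-fold over these zones and by 1.60-fold from middle to dense (limma adjusted p = 0.0458).
All 12 non-ATPase subunit RNAs rose from light to dense, with a median of 2.27 on the log2 scale. Psmd4, which encodes a ubiquitin receptor and had the highest mean of these, had 77.5 to 107 TPM in the light zone (median 88.4), 131 to 256.2 TPM in the middle (median 195) and 308 to 509 TPM in the dense zone (median 423). The 3 zones did not overlap. Psmd13, a lid subunit, changed by 9.08-fold from light to dense, from 14.4 to 34.6 TPM (median 21.1) to 168 to 223 TPM (median 216). It was among 4 of the 12 non-ATPase RNAs (with Psmd1, Psmd4 and Psmd14) that rose again from middle to dense, by 2.23-fold (limma adjusted p = 0.00756). Psmd14 encodes the enzyme that cuts ubiquitin from the substrate, and changed by 2.28-fold at that step (limma adjusted p = 0.00877).
Adrm1, another ubiquitin receptor, had 27.0 to 86.4 TPM in the light zone and 223 to 443 TPM in the dense zone (6.97-fold), with 82.1% of its 31-base words shared with a single other gene annotated as protein coding, Gm9774.

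Psmd8, also a lid subunit, was the exception in the cap. It rose from 70.6 to 178 TPM in the light zone (median 82.1) to 282 to 388 TPM in the middle (median 349) and then fell to 135 to 239 TPM in the dense zone (median 207). Middle and dense libraries did not overlap. The fall was 1.75-fold (log2 −0.81 ± 0.16 SE, limma adjusted p = 0.0157), and the RNA was highest at fraction 12 in both gradients. Sem1, the smallest lid subunit, is listed under its older symbol Shfm1 and so lies outside the rule by which the 50 genes were chosen. It rose by 1.39 on the log2 scale in the first step and fell in the second (log2 −1.67, limma adjusted p = 0.00700), and unlike Psmd8 it was not called between light and dense (log2 −0.28, limma adjusted p = 0.224); the difference between these RNAs was not tested.

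**Figure D2:**
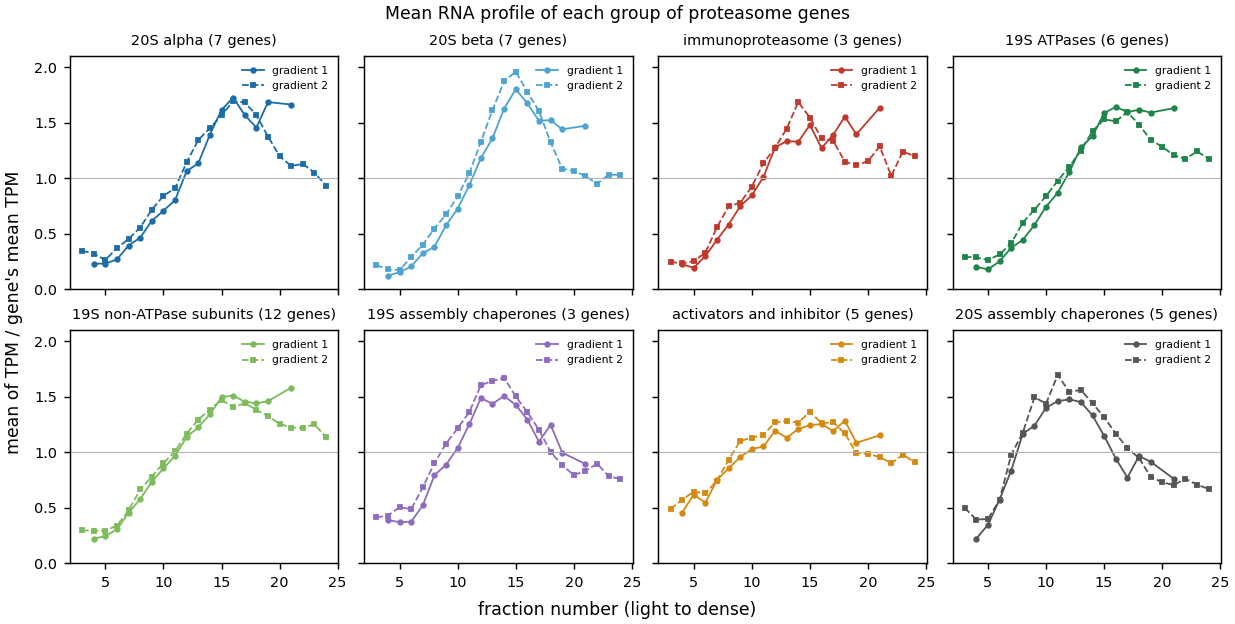
Mean RNA profile of each group of proteasome genes across the fractions (x axis, light to dense) of gradient 1 (circles, solid line) and gradient 2 (squares, dashed line). The y axis gives TPM divided by the mean TPM of the gene in that gradient, averaged over the genes of the group; it starts at 0. The beta subunits peak at fraction 15 in both gradients at 1.80 and 1.96 times the mean, and the 20S assembly chaperones at fraction 12 in gradient 1 and 11 in gradient 2.

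Of the RNAs of the core chaperones, Pomp, Psmg1 and Psmg3 were highest at fractions 11 to 13 in both gradients. From light to middle, 4 of 5 chaperones of the core rose (Psmg1, Psmg2, Psmg3 and Pomp, by 1.54 to 2.42 on the log2 scale), where 23.5% of all genes rose and 24.1% fell. From middle to dense none of the 5 rose and 2 fell (Pomp and Psmg4), against 13 risen and 1 fallen of the 35 tested core and cap subunits, the 3 of the immunoproteasome included. Since 4.79% of all genes rose and 22.5% fell at this step, the counts for 5 chaperones cannot be set apart from those of all genes. With the gradient as a block, Psmg1 and Psmg3 fell too (limma adjusted p = 0.0380 and 0.0251), and of the 35 subunits 21 rose and 2 fell, where 14.1% of all genes rose and 39.3% fell.
Pomp, the maturation protein needed for the beta rings to close, was the most abundant of these RNAs. It had 95.1 to 282 TPM in the light zone (median 157), 531 to 872 TPM in the middle (median 737) and 358 to 531 TPM in the dense zone (median 414). The middle and dense ranges just met, with the highest dense library slightly above the lowest middle one. The fall was 1.68-fold (limma adjusted p = 0.0227), and its highest value was at fraction 12 in gradient 1 and 13 in gradient 2.
Psmg1 and Psmg2 encode partners in one chaperone and peaked at fractions 11 and 14 in gradient 1 and at fractions 12 and 13 in gradient 2. Psmg2 had 3.08 to 20.0 TPM in the light zone (median 9.13), 23.5 to 33.7 TPM in the middle (median 27.8) and 14.1 to 30.6 TPM in the dense zone (median 25.02). Its rise from light to dense (2.41-fold) was the only call of that comparison lost when a zone of a gradient was left out (limma adjusted p = 0.0509 without the light zone of gradient 1).

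Psmg4 departed from its group. It encodes the partner of Psmg3 in the other chaperone of the core, yet its RNA fell from light to dense whereas that of Psmg3 rose (log2 1.73 ± 0.30 SE). Psmg4 had 22.5 to 74.7 TPM in the light zone (median 32.3), 23.3 to 89.3 TPM in the middle (median 43.9) and 11.0 to 23.9 TPM in the dense zone (median 17.2). The fall from light to dense was 2.09-fold (limma adjusted p = 0.00263), and the light and dense ranges overlapped slightly. Between these zones lay its peak: at fraction 9 it reached 101 TPM in gradient 1 and 96.1 TPM in gradient 2, and by fraction 13 it was back at 24.1 and 23.3 TPM. Psmg3 peaked at fraction 13 in both gradients, at 87.5 and 51.9 TPM. The profiles of Psmg4 and of the mean core or cap subunit had a Pearson's R of −0.60 over the 17 fractions of gradient 1 and −0.47 over the 22 of gradient 2.

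Of the 3 chaperones of the cap, Psmd5 rose by 1.07 on the log2 scale from light to dense (limma adjusted p = 0.00747), from a median of 21.1 TPM to one of 47.6 TPM, but it was higher in the middle zone, at 61.8 to 92.9 TPM (median 76.5), and peaked at fraction 12 in both gradients. Psmd9, with the highest mean of the 3, had 15.3 to 39.6 TPM in the light zone (median 25.4), 46.1 to 107 TPM in the middle (median 72.5) and 30.4 to 66.7 TPM in the dense zone (median 53.1). Its change from light to dense missed the threshold (limma adjusted p = 0.0593) and passed it with the gradient as a block (adjusted p = 0.000720). From middle to dense, Psmd5 and Psmd9 were called lower only in the blocked fit (limma adjusted p = 0.0150 and 0.00697), against 0.0884 and 0.270 without the block. Psmd10 (gankyrin) had a profile closer to those of the subunits, with an R of 0.89 and 0.92 with their mean.

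The activators gave the widest range of all groups. Psme1 and Psme2 encode the subunits of one ring, PA28, and both rose from light to dense, by 8.83-fold and 6.16-fold. Psme1 had 38.4 to 112 TPM in the light zone (median 75.9), 193 to 371 TPM in the middle (median 267) and 557 to 764 TPM in the dense zone (median 661), without overlap between zones. Psme2 had already reached 299 to 532 TPM in the middle zone (median 425) and had 277 to 453 TPM in the dense zone (median 390).
Psme1 thus rose from middle to dense (2.46-fold, limma adjusted p = 0.00818) and Psme2 was not called (log2 −0.11 ± 0.17 SE, limma adjusted p = 0.676). The difference between the partners was not tested. Psme2 shares 66.2% of its 31-base words with Psme2b, a close copy that was itself listed at 0 to 11.3 TPM over the 39 libraries.
Psme3 encodes a nuclear activator related to PA28. Its RNA had the smallest change of the 48 from light to dense (log2 −0.22): 52.8 to 85.3 TPM in the light zone (median 65.1), 89.1 to 108 TPM in the middle (median 94.3) and 38.6 to 72.3 TPM in the dense zone (median 58.0). It was not called between light and dense (limma adjusted p = 0.336) or light and middle (0.0515; 0.00567 with the block) and fell from middle to dense by 1.71-fold (limma adjusted p = 0.0295).

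Psme4, which encodes the large single-chain activator PA200, was the other RNA to fall from light to dense. It had 59.4 to 134 TPM in the light zone (median 76.5), 75.4 to 144 TPM in the middle (median 106) and 29.3 to 45.9 TPM in the dense zone (median 38.4). No dense library reached the lowest light or middle one. Light and middle were not called apart (limma adjusted p = 0.0707; 0.0139 with the block, higher in the middle). The falls were 2.11-fold from light to dense and 2.76-fold from middle to dense (limma adjusted p = 0.00164 and 0.00700). Like Psmg4, it peaked at fraction 9 in both gradients, at 168 and 163 TPM. Its coding sequence is the longest of the 50 at 5532 bases, and that of Psmg4 is among the shortest at 372 bases.
Psmf1 was low and rose late, with 11.9 to 27.6 TPM in the light zone (median 15.5), 14.4 to 27.8 TPM in the middle (median 21.7) and 32.3 to 56.4 TPM in the dense zone (median 37.8). It rose by 2.42-fold from light to dense (limma adjusted p = 0.00505). Of the 2 steps, the second was called (1.89-fold, limma adjusted p = 0.0353) and the first was not (0.255; 0.0214 with the block).

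**Figure D3:**
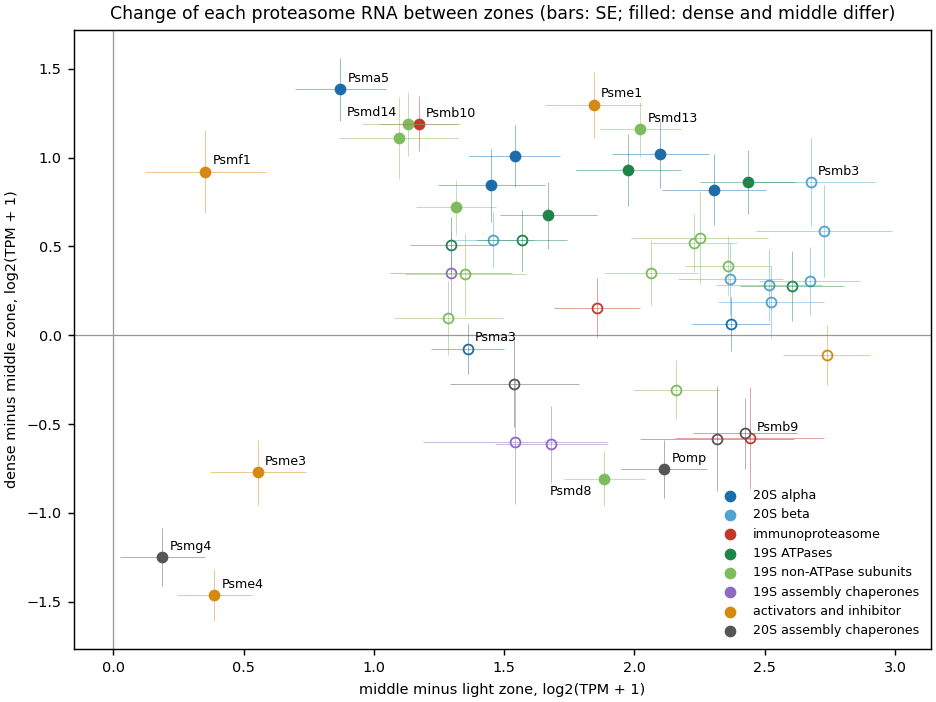
Change of each of the 48 tested proteasome RNAs from the light to the middle zone (x axis) and from the middle to the dense zone (y axis), as differences of log2(TPM + 1) with standard errors; the axes share the middle libraries. Colours give the group, and filled points were called between middle and dense. All points lie right of 0, the alpha subunits reach 1.38 above 0 (Psma5), and Psme4 lies lowest at −1.46.

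The immunoproteasome RNAs were present throughout at levels below their constitutive partners. All 3 rose from light to dense. Psmb8 had 19.5 to 52.5 TPM in the light zone (median 29.3), 80.6 to 155 TPM in the middle (median 117) and 82.5 to 160 TPM in the dense zone (median 136).
Psmb9 had 8.80 to 42.7 TPM in the light zone (median 15.9), 63.4 to 121 TPM in the middle (median 102) and 52.1 to 78.9 TPM in the dense zone (median 61.6). Psmb10 had 19.2 to 42.2 TPM in the light zone (median 24.5), 50.3 to 70.1 TPM in the middle (median 58.6) and 116 to 180 TPM in the dense zone (median 133).
The 3 RNAs parted after the middle zone: Psmb10 rose by 2.28-fold (limma adjusted p = 0.00720), Psmb8 was not called (adjusted p = 0.551), and Psmb9 had a lower value that was called only with the gradient as a block (adjusted p = 0.197, and 0.0497 with the block). Psmb9 peaked at fractions 13 and 14, and Psmb10 at fractions 21 and 23, near or at the dense end of what was sequenced.

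Each RNA was set against that of the subunit it replaces. In the light zone, Psmb8 stood at 55.1% of Psmb5 in gradient 1 and 63.7% in gradient 2. In the middle zone it stood at 27.6% and 38.5%, and in the dense zone at 21.2% and 27.5%. The ratio thus fell from zone to zone in both gradients, by 1.38 and 1.21 on the log2 scale overall. Of the 31-base words of Psmb5, 74.0% also occur in other genes, against 0% for Psmb8, so this ratio carries the uncertainty of Psmb5.
Psmb9 against Psmb6 was 15.4% and 27.7% in the light zone, 17.5% and 23.9% in the middle and 9.196% and 13.7% in the dense zone. Here the gradients disagreed on the first step and shared the fall in the second, of 0.93 and 0.81 on the log2 scale.
Psmb10 against Psmb7 had another shape, at 32.4% and 27.2% in the light zone, 13.3% and 13.0% in the middle and 22.5% and 26.1% in the dense zone. Its middle value was lowest in both gradients. These ratios are given per gradient as descriptions, and no model was fitted to them; a two-sided exact permutation test of 2 gradients against 2 cannot go below p = 0.333.

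**Figure D4:**
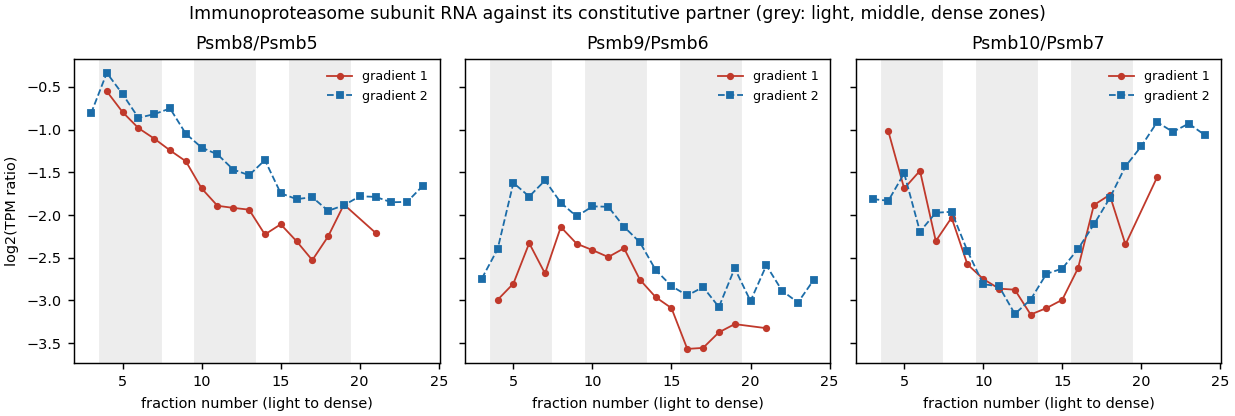
The log2 ratio of TPM of each immunoproteasome subunit RNA to that of the constitutive subunit it replaces, in every fraction (x axis, light to dense) of gradient 1 (red circles) and gradient 2 (blue squares); grey bands mark the light, middle and dense zones. Psmb8/Psmb5 declines to a zone mean of −2.05 in the dense zone, and Psmb10/Psmb7 is lowest in the middle zone at −2.93.

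Because these subunits are abundant in blood-derived cells, markers of such cells were read beside them. None of 10 Kupffer cell markers rose from light to dense and 5 fell, where 22.3% of all genes rose and 39.6% fell, so the number that fell is near the background. Of the 10 lymphocyte and pan-leukocyte markers, 7 were in both tables, and their summed level was 7.75 to 19.0 TPM in the light and 7.78 to 25.2 TPM in the dense zone. Only 2 of them, Coro1a and Cd52, passed the minimum level. Coro1a rose (from a mean of 2.26 to 9.28 TPM), and Cd52 was not called. Of 9 tested endothelial markers 8 fell, and of 6 tested stellate cell markers 5 fell. The B cell markers Cd79a and Cd79b were not in both tables, and the T cell receptor markers Cd3e and Cd3d had means under 1.5 TPM in each zone. Markers of a single cell type can move both ways: of the 10 hepatocyte markers, 2 rose from light to dense and 6 fell. The marker changes therefore do not show where the RNA of a cell type lies, and the cell source of the immunoproteasome RNAs was not tested.

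The place of each RNA was also summed up by its center of sedimentation, the mean fraction number weighted by TPM over the 17 fractions that both gradients hold. The median center of the 48 RNAs was 14.4 in gradient 1 and 14.0 in gradient 2, against 11.3 in both for all tested genes. By group, the median centers in gradients 1 and 2 were 15.1 and 14.4 for alpha, 14.6 and 14.1 for beta, 14.7 and 14.1 for the ATPases and 14.5 and 14.1 for the non-ATPase subunits.
They were 13.0 and 12.9 for the cap chaperones and 13.1 and 13.0 for the core chaperones, so all 4 subunit groups lay denser than both chaperone groups in each gradient. Among the chaperones Psmd10 was densest in both gradients (14.1 and 13.4). Among the subunits of those 4 groups, Psmd8 (12.6 and 12.7), Psma3 (13.4 and 13.1), Psmd3 (13.5 and 13.2) and Psmd11 (13.6 and 13.2) were lightest. Psme4 (10.5 in both) and Psmg4 (9.96 and 10.1) were lightest. Psme1 was densest in gradient 1 at 15.5 and Psmd13 in gradient 2 at 15.3.
Every tested RNA but Psmd8 and Psmg4 had a lower center in gradient 2, as the plot of centers shows, so groups are compared within a gradient.

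**Figure D5:**
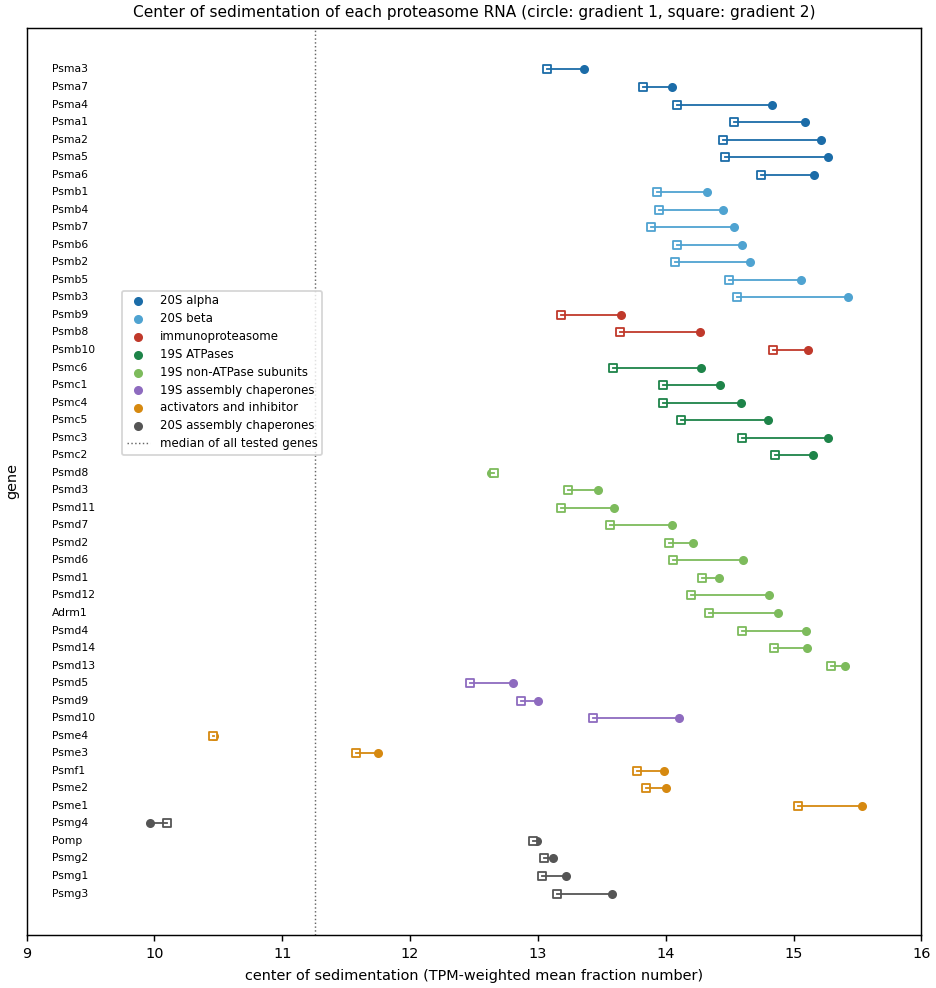
Center of sedimentation (x axis, fraction number weighted by TPM) of each tested proteasome RNA in gradient 1 (filled circle) and gradient 2 (open square), grouped and coloured by role. The dotted line marks the median of all tested genes at 11.3. Subunits lie mostly between 13.5 and 15.5, assembly chaperones mostly near 13, and Psme4 and Psmg4 near 10.

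Centers followed coding length little. Over the 48 genes, coding length and center had a Spearman's rho of 0.04 in gradient 1 and 0.13 in gradient 2. The length of the 3′ untranslated region had a rho of −0.43 and −0.47, so that RNAs with a longer one tended to lie lighter. These are descriptions across genes that share the same libraries, from 1 GENCODE transcript a gene, and genes are not independent replicates.

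Likeness of profiles within a group ranged widely, and the median was highest in the beta ring. Pearson's R between all pairs of the 48 profiles had a median of 0.81 over the 22 fractions of gradient 2 and 0.84 over the 17 of gradient 1. Within groups the medians in gradient 2 were 0.97 for the 21 pairs of beta RNAs (lowest 0.94), 0.94 for the ATPases, 0.89 for alpha, 0.83 for the non-ATPase subunits, 0.84 for the core chaperones and 0.81 for the cap chaperones. They were 0.40 for the 3 pairs within the immunoproteasome, against 0.74 in gradient 1, and 0.09 for the activators and the inhibitor, against 0.06 in gradient 1.
Between alpha and beta the median was 0.87, near that within alpha, and between alpha and the core chaperones it was 0.53. Each RNA was also set against the mean profile of the core and cap subunits, itself left out. The R was at least 0.9 in both gradients for 7 of 7 beta RNAs, 6 of 6 ATPases, 4 of 7 alpha RNAs, 6 of 12 non-ATPase subunits and 1 activator (Psme1), and for none of the 3 immunoproteasome and 8 chaperone RNAs. Neighbouring fractions share RNA species, so the fractions behind each R are not independent.

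Many RNAs outside the proteasome had the same shape. Of 7185 other genes with a mean of at least 10 TPM, 443 (6.17%) had an R of at least 0.9 in both gradients with the mean profile of the 48. Among those with the highest values, by the lower of the 2 gradients, were Gars (0.990), a tRNA synthetase, Ndufa9 (0.987), a subunit of respiratory complex I, and Rbbp4 (0.984), a histone binding protein. Galk1, Mocos, Ssrp1, Amacr and Upb1 had values of 0.983 to 0.984.

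Other genes of the ubiquitin system were examined too. Of a list of 36 symbols of ubiquitin genes, shuttle factors and regulators, 31 were in both tables and tested. From light to dense, 12 rose and 5 fell, with a median of 0.11, and from middle to dense 4 rose and 7 fell, with a median of −0.41. The medians of all genes were −0.43 and −0.28, and of all genes 22.3% rose and 39.6% fell from light to dense and 4.79% rose and 22.5% fell from middle to dense. The 7 of 31 that fell in the second step are close to that share.
Those that rose in the second step included the polyubiquitin gene Ubb, Vcp, the ATPase that pulls ubiquitinated proteins apart, and its cofactor Ufd1l. From light to dense, Ubb changed by 3.41 on the log2 scale, while Rps27a, which encodes ubiquitin fused to a ribosomal protein, fell (log2 −2.33). Uba1, which activates ubiquitin, changed by 2.54. Nfe2l1, a transcription factor known for driving proteasome genes, fell (log2 −1.70), and the deubiquitinases of the cap, Usp14 and Uchl5, rose by 0.97 and 0.62. All of these light to dense changes were called by limma.

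The promoters of these genes were searched for 4 motifs on both strands, in the 250 bases before the start of each gene (RefSeq, GRCm38.p6). Any link of the motifs to sedimentation was not tested. The table held 42 of the 50 genes and 27025 genes in all. The CCAAT box (CCAAT) was in 35.7% of the proteasome promoters and 34.5% of all promoters, the core of the antioxidant response element (TGACNNNGC) in 14.3% and 10.2%, and the CRE (TGACGTCA) in 0 of 42 and 1.62%. The site of nuclear respiratory factor 1 (CGCNTGCG), a factor unrelated to Nfe2l1, was in 7 of 42, or 16.7%, against 6.94% of all promoters. Stretches of 60 bases around that motif, in capitals, are shown for genes of 3 groups because it was the motif whose share differed most; each is written on the strand of its gene.
Psma2, chr13:14613090-14613149, plus strand: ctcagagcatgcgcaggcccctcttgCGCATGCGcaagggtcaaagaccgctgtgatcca
Psmc4, chr7:28050227-28050286, minus strand: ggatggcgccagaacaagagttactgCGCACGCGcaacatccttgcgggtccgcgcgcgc
Psmd11, chr11:80428473-80428532, plus strand: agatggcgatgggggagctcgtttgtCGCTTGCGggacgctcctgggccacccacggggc
Psmd14, chr2:61711589-61711648, plus strand: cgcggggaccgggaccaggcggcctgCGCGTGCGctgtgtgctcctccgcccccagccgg
The genes with the motif were Psma2, Psma3, Psma4, Psmc4, Psmc5, Psmd11 and Psmd14. A match describes the letters in this window only.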

How the data were processed

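The 2 tables deposited by the authors hold TPM per gene symbol, with 1 column per fraction (17 and 22, all matched to samples). Per the paper's methods and the labels, stranded, ribosomal RNA depleted libraries from equal RNA masses were sequenced in pairs, demultiplexed with bcl2fastq 2.16.0.10 and quantified with kallisto against mm10 RefSeq transcripts; the kallisto version is not given in the sources used here. Genes were kept by the authors where 1 fraction exceeded 1 TPM. TPM keeps no depth, so the depth and counting error are unknown. Columns summed to 998099 to 999202.

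Zone means of log2(TPM + 1), with a pseudocount of 1, were tested with limma 3.58.1 (R 4.3.3; trended, moderated variances; 6 values, 3 zones in one fit), adjusted over 11754 genes. The code was tested on simulated data. Fractions with the same gradient number come from one homogenate on one gradient, and the 2 gradients are described as biological replicates; differences between gradients correlated at 0.54 to 0.80 between zones over genes. The gradient as a block was run as an alternative. The p-values measure the spread between 2 gradients. The members and lists were chosen with earlier results of these data known. By rule, full values are given for the most abundant gene of each group, genes called against their group, the catalytic pairs, Psma1, Psmb1, Psmc5 and Adrm1. Among genes called from light to dense, they are also given for the 5 largest rises and the 5 largest falls or smallest rises. Others were named after their values were seen. Other alternatives were the pseudocount, the minimum level, quantile normalization, rescaling, wider zones and leaving out a zone of a gradient. Transcripts, lengths and 31-base words came from GENCODE M21. Protein data were not used here, and some genes outside the proteasome are not reported here.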

Additional observations from a re-analysis of the deposited data

How the results depend on the processing

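From light to dense, 43 to 45 proteasome genes rose in every alternative and 2 fell, except that 3 fell without the minimum level, which admits Psmb11. From light to middle, 40 to 47 rose and 0 fell, except for 1 without the minimum level. From middle to dense, the 15 higher and 5 lower calls became 23 and 10 with the gradient as a replicate block, and 3 fell with wider zones (4 to 8, 9 to 13 and 14 to 19). Leaving out a zone of a gradient gave 0 to 14 higher and 0 to 4 lower; it gave 0 of both without either middle zone, 7 higher without the dense zone of gradient 1, and 2 lower without that of gradient 2. An arm left with 1 value is assumed to vary like the other zones. From middle to dense, quantile normalization gave 43.0% higher among all called genes, against 17.6% as deposited, and leaving out the 50 most abundant genes gave 25.5%; proteasome calls were 19 higher and 4 lower, and 20 higher and 5 lower. The median change from light to dense was 2.04 to 2.44 over its alternatives, at 2.04 for genes sharing under 25% of their 31-base words, an alternative added after the data were seen, and at 2.05 and 2.44 in gradients 2 and 1. The median pairwise R of 0.81 became 0.84 in gradient 1 and 0.88 on log2(TPM + 1) profiles. The median center of 14.2 became 12.6 with log2(TPM + 1) weights. Between the gradients alone, the dense minus light log2 ratio ranged from −1.38 to −1.21 for Psmb8/Psmb5, from −1.02 to −0.74 for Psmb9/Psmb6 and from −0.53 to −0.06 for Psmb10/Psmb7. No change of the genes named by rule reversed; the causes of these shifts were not tested. The block changed no calls beyond those given in the report and those of Psmc1, Psmc6, Psmd6, Psmd12 and Adrm1, each called higher from middle to dense only with the block.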
